A study of Homo sapiens with 6 samples.

Results

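The genes described here are the D cyclins CCND1, CCND2 and CCND3, the E cyclins CCNE1 and CCNE2, the kinases CDK4 and CDK6, the retinoblastoma gene RB1, and the inhibitors CDKN1B (p27) and CDKN2A (p16 and p14ARF). They were taken by name from the 58676 genes of the deposited expression table, and all 10 were found there, each in a single row. RNA sequencing compared 3 NS control with 3 BCL9 KD samples of DCIS.COM, an established basal-type human breast line that serves as a model of ductal carcinoma in situ (DCIS). Both groups were transduced with the PLKO.1 lentiviral vector, kept in puromycin and grown in DMEM/F12 with horse serum, and each sample came from its own T75 flask. NS control cells carried a non-silencing shRNA. BCL9 KD cells carried an shRNA against BCL9, a coactivator of β-catenin in Wnt signaling that the study also placed in a complex with STAT3. A single BCL9 hairpin was used, so an effect of that hairpin and an effect of BCL9 loss cannot be told apart here.

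In the G1 phase of the cell cycle, D cyclins bind CDK4 and CDK6 and phosphorylate the RB1 protein, which releases E2F transcription factors. E2F factors then switch on the E cyclins and the genes of DNA replication, and E cyclins with CDK2 carry the cell into S phase. CDKN2A encodes p16, which blocks CDK4 and CDK6 directly, and from another first exon p14ARF, which stabilizes p53. CDKN1B encodes p27, an inhibitor of cyclin-CDK2 complexes. In breast cancer CCND1 is a well-known oncogene, it has been described as a target of both Wnt and STAT3 signaling, and CDK4 and CDK6 are drug targets.

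Expression is given in FPKM, read counts scaled by the length of the gene and by the depth of the sample. Levels can then be compared between genes only approximately. The length is that deposited for each gene, and the transcript forms expressed here were not determined. Between 15222452 and 26949026 reads were counted on genes per sample. BCL9 itself was measured at 6.25, 6.24 and 5.34 FPKM in NS control and at 2.86, 2.78 and 2.59 FPKM in BCL9 KD samples, so the groups followed their labels. All 7 basal epithelial markers were expressed at a mean of at least 0.5 FPKM (KRT5, KRT6A, KRT14, KRT17, TP63, ITGA6 and EGFR). Of 7 luminal markers, KRT8, KRT18, KRT19, GATA3 and FOXA1 also reached that mean, while the receptors ESR1 and PGR were at most 0.0791 FPKM on average in either group. The luminal sum, mostly KRT8 and KRT18, was 435 to 552 FPKM in NS control and 396 to 414 FPKM in BCL9 KD samples, and 0 of the 5 that were tested were called. The basal sum was 1410 to 1482 and 1447 to 1464 FPKM. Fibroblast, blood and immune, and endothelial markers summed to at most 0.905, 1.38 and 4.06 FPKM in any sample. The endothelial sum was higher in BCL9 KD (3.22 to 4.06 FPKM) than in NS control samples (1.80 to 2.42 FPKM), nearly all of it PECAM1, which was called higher (log2 fold change 0.61, limma adjusted p = 0.0477), while CDH5, VWF and KDR were at most 0.114 FPKM on average. The blood and immune sum, mostly CD14, was 0.837 to 1.38 FPKM in BCL9 KD and 0.294 to 0.560 FPKM in NS control samples. The part of these markers in the results below was not tested.

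Of these genes, 2 D cyclins changed. The difference between BCL9 KD and NS control samples was fitted by limma on log2(FPKM + 0.5). The fit covered the 13745 genes whose mean reached 0.5 FPKM, and a Benjamini-Hochberg adjusted p under 0.05 made a call. Of the 10 genes, 9 were tested, CCND1 and CCND2 fell, 7 did not pass, and CDKN2A was not tested because no read was counted on it. Over all genes tested, 5.87% were called, with 2.91% lower and 2.96% higher. An unadjusted limma p under 0.05 was found for 3 of the 9 genes and for 27.5% of all genes tested. The median log2 fold change of the 9 genes was −0.05, against 0.04 over all genes tested. In bulk RNA, fewer cells that express a gene and less of its RNA per cell cannot be told apart, and FPKM measures a share of the RNA rather than an amount.

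CCND2, on chromosome 12 of GRCh38 from 4273772 to 4305350, encodes cyclin D2. It was measured at 26.96, 30.9 and 26.5 FPKM in the NS control samples (replicates 1 to 3) and at 15.0, 11.4 and 11.8 FPKM in the BCL9 KD samples. The lowest control was well above the highest knockdown sample. The mean fell from 28.1 ± 2.40 to 12.7 ± 2.01 FPKM (SD, n = 3 each), which is 54.7% lower, with a log2 fold change of −1.12 (95% interval −1.41 to −0.83, limma adjusted p = 0.0106). Among the 13745 genes tested, 57 (0.415%) had a log2 fold change at or below that of CCND2, and 457 (3.32%) at or below that of CCND1. The decrease of CCND2 was close in size to that of the targeted gene BCL9, whose log2 fold change was −0.99 (95% interval −1.21 to −0.77, limma adjusted p = 0.00773). The values rest on 1318 to 4472 reads per sample.

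CCND1, on chromosome 11 from 69641087 to 69654474, encodes cyclin D1 and was the most abundant of these genes in every sample. It was measured at 96.5, 96.3 and 81.3 FPKM in NS control samples and at 67.0, 61.6 and 60.0 FPKM in BCL9 KD samples. The groups did not overlap. The mean fell from 91.4 ± 8.69 to 62.9 ± 3.63 FPKM (SD, n = 3 each), 31.2% lower, with a log2 fold change of −0.53 (95% interval −0.75 to −0.32, limma adjusted p = 0.0301). The reads behind each value numbered 4541 to 10584. Even after this decrease, CCND1 was expressed above 95.9% of the genes tested in BCL9 KD cells, against 97.6% in NS control cells.

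CCND3, on chromosome 6 from 41934933 to 42050357, encodes cyclin D3, the least abundant D cyclin here. It was measured at 9.21, 7.56 and 7.86 FPKM in NS control and at 7.76, 8.03 and 7.90 FPKM in BCL9 KD samples, and the BCL9 KD values lay inside the range of the controls. Its log2 fold change was −0.05 (95% interval −0.26 to 0.17, limma adjusted p = 0.754), an interval that does not reach the decrease of CCND1 or CCND2.

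**Figure D1:**
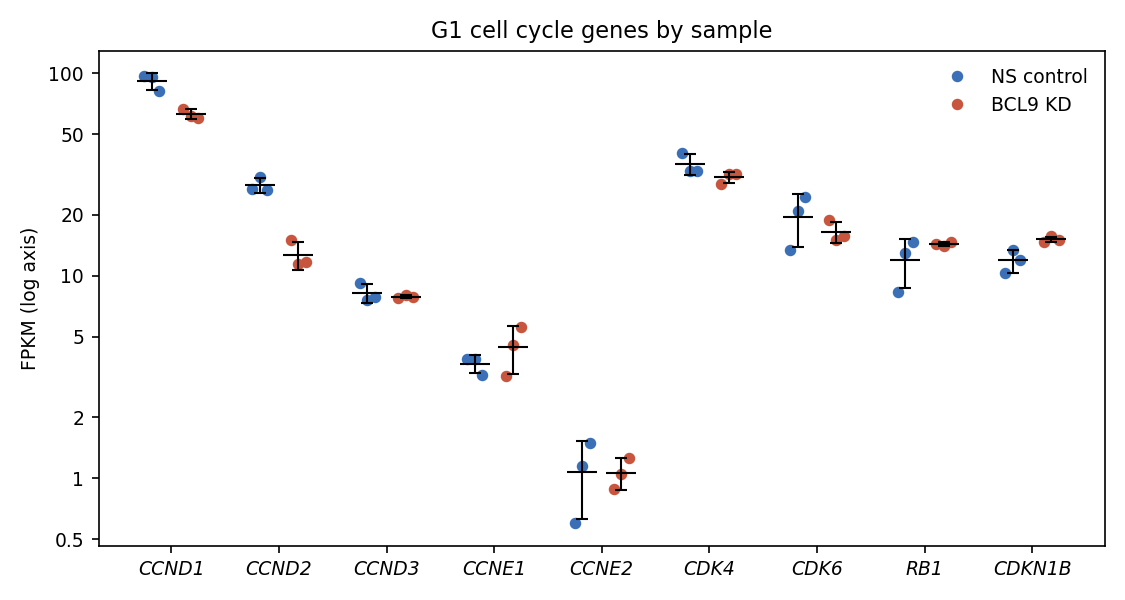
FPKM on a log axis of 9 genes in each sample of NS control (blue) and BCL9 KD (red); points are samples in the order of replicates 1 to 3, and black marks give the mean and SD of 3 samples. CDKN2A, at 0 in every sample, cannot be drawn on this axis. The red points lie below all blue points for CCND1, CCND2 and CDK4 and above them for CDKN1B.

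For both called genes, every BCL9 KD value was below every NS control value, and the two-sided exact permutation test of 3 against 3 samples gave p = 0.1, the smallest p it allows. Groups that did not overlap were common in this comparison, at 34.2% of all genes tested, and were found for 4 of the 9 genes here (CCND1, CCND2, CDK4 and CDKN1B). The calls of CCND1 and CCND2 were lost when NS control replicate 2, BCL9 KD replicate 2 or BCL9 KD replicate 3 was left out. The limma adjusted p was then 0.135 to 0.157 for CCND1 and 0.0619 to 0.0761 for CCND2. The log2 fold changes over all 6 such fits stayed between −0.61 and −0.49 for CCND1 and between −1.24 and −1.05 for CCND2. The call of BCL9 itself was lost in the same 3 fits, with a limma adjusted p of up to 0.0700.

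The make-up of the D cyclin RNA also differed between the groups. The sum of the 3 genes was 133, 135 and 116 FPKM in NS control and 89.8, 81.0 and 79.7 FPKM in BCL9 KD samples. CCND2 made up 20.3%, 22.9% and 22.9% of that sum in NS control and 16.8%, 14.05% and 14.8% in BCL9 KD samples. The share of CCND1 was 70.3% to 72.7% in NS control and 74.6% to 76.0% in BCL9 KD samples, and that of CCND3 was 5.61% to 6.94% and 8.65% to 9.92%. All 3 shares were separate between the groups. CCND1 was 3.07 to 3.58 times as abundant as CCND2 in NS control and 4.45 to 5.41 times in BCL9 KD samples. These shares are ratios within a library, and they are given as a description without a test.

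**Figure D2:**
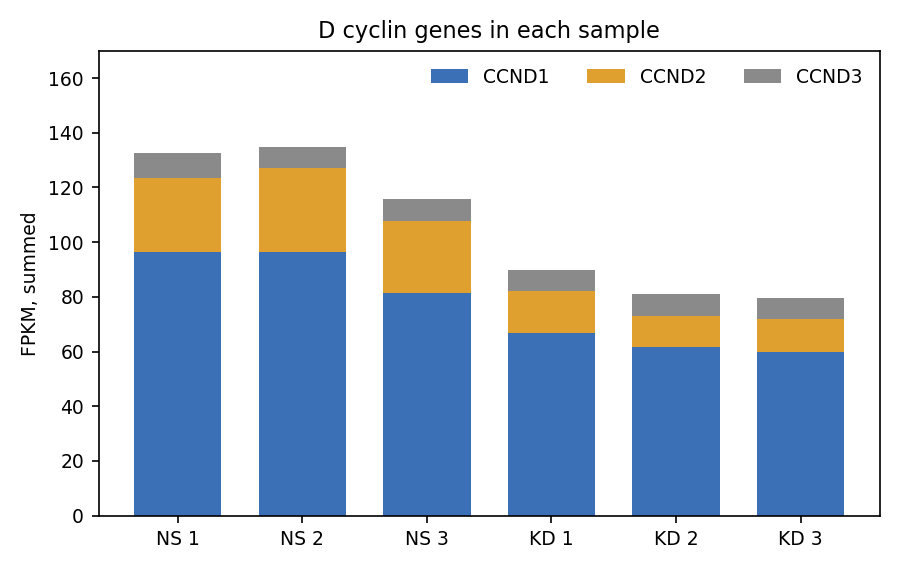
Summed FPKM of CCND1 (blue), CCND2 (orange) and CCND3 (grey) in each NS control (NS) and BCL9 KD (KD) sample, by replicate number. The total height is 116 to 135 FPKM in NS control and 79.7 to 89.8 FPKM in BCL9 KD samples, and the orange segment is the one that shrinks most in proportion.

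The catalytic partners of the D cyclins were not called. CDK4, on chromosome 12 from 57747727 to 57756013, was measured at 40.4, 33.1 and 33.1 FPKM in NS control and at 28.6, 31.8 and 32.0 FPKM in BCL9 KD samples. The groups were separate but close, since the highest knockdown value was 32.0 and the lowest control 33.1 FPKM. The log2 fold change was −0.20 (95% interval −0.44 to 0.04, limma adjusted p = 0.242). It was −0.11 without NS control replicate 1 and −0.12 after the GC correction described below, neither of which was called. CDK6, on chromosome 7 from 92604921 to 92836594, was measured at 13.4, 21.0 and 24.5 FPKM in NS control and at 18.8, 15.1 and 15.7 FPKM in BCL9 KD samples. Its NS control values enclosed those of the knockdown, with a log2 fold change of −0.20 (95% interval −0.71 to 0.31, limma adjusted p = 0.561).

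The value of CDK6 depended on single libraries. Without NS control replicate 1, its log2 fold change was −0.45 (limma adjusted p = 0.0756), and without NS control replicate 3 it was −0.02 (limma adjusted p = 0.943). CDK6 made up 24.9% of the summed CDK4 and CDK6 level in NS control replicate 1 but 38.8% and 42.6% in replicates 2 and 3, and 32.2% to 39.7% in the BCL9 KD samples. The sum of both kinases was 53.7 to 57.6 FPKM in NS control and 46.9 to 47.7 FPKM in BCL9 KD samples, and the groups were separate. This sum is a description without a test. In NS control replicate 1, CDK4 was the highest and CDK6 the lowest of all 6 samples.

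The E cyclins, which act after RB1 phosphorylation, were expressed at lower levels and did not pass the test. CCNE1, on chromosome 19 from 29811898 to 29824308, was measured at 3.88, 3.90 and 3.25 FPKM in NS control and at 3.22, 4.54 and 5.61 FPKM in BCL9 KD samples. The BCL9 KD samples spread widely around the controls, with the lowest and the highest of all 6 values among them. The log2 fold change was 0.22 (95% interval −0.21 to 0.66, limma adjusted p = 0.458). It was 0.41 without BCL9 KD replicate 1, 0.06 without BCL9 KD replicate 3 and 0.15 without NS control replicate 3. CCNE2, on chromosome 8 from 94879770 to 94896678, was measured at 0.601, 1.15 and 1.49 FPKM in NS control and at 0.888, 1.05 and 1.26 FPKM in BCL9 KD samples. It rests on 60 to 124 reads per sample, and its log2 fold change of 0.02 had a 95% interval of −0.54 to 0.58 (limma adjusted p = 0.959). Its sign turned to −0.20 after correction for GC content (95% interval −0.55 to 0.15).

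RB1 and CDKN1B, which restrain the passage from G1, had higher means in BCL9 KD cells without passing the test. CDKN1B, on chromosome 12 from 12715058 to 12722371, was measured at 10.3, 13.5 and 11.97 FPKM in NS control and at 14.7, 15.6 and 15.0 FPKM in BCL9 KD samples. All 3 knockdown values were above the controls. The mean was 11.9 ± 1.57 FPKM in NS control and 15.1 ± 0.490 FPKM in BCL9 KD samples (SD, n = 3 each), with a log2 fold change of 0.34 (95% interval 0.10 to 0.58, limma adjusted p = 0.0937). Its limma adjusted p ranged from 0.0728 to 0.282 over all other settings and left-out samples, so no setting called it. RB1, on chromosome 13 from 48303751 to 48481986, was measured at 8.34, 12.9 and 14.7 FPKM in NS control and at 14.4, 14.02 and 14.6 FPKM in BCL9 KD samples. NS control replicate 1 was well below the other 5 samples, among which the highest value belonged to NS control replicate 3. The log2 fold change of RB1 was 0.29 (95% interval −0.16 to 0.74, limma adjusted p = 0.358), without NS control replicate 1 it was 0.06, and without NS control replicate 3 it was 0.45.

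The ratio of summed D cyclins to CDKN1B separated the groups. The D cyclin sum was 12.9, 10.02 and 9.67 times the FPKM of CDKN1B in NS control samples and 6.12, 5.18 and 5.30 times in BCL9 KD samples. This separation follows from the values above, since the D cyclin sum was lower and CDKN1B higher in every BCL9 KD sample. The ratio adds no further evidence. It is a description of RNA levels chosen after the values were seen, and protein levels of these genes were not analysed here.

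**Figure D3:**
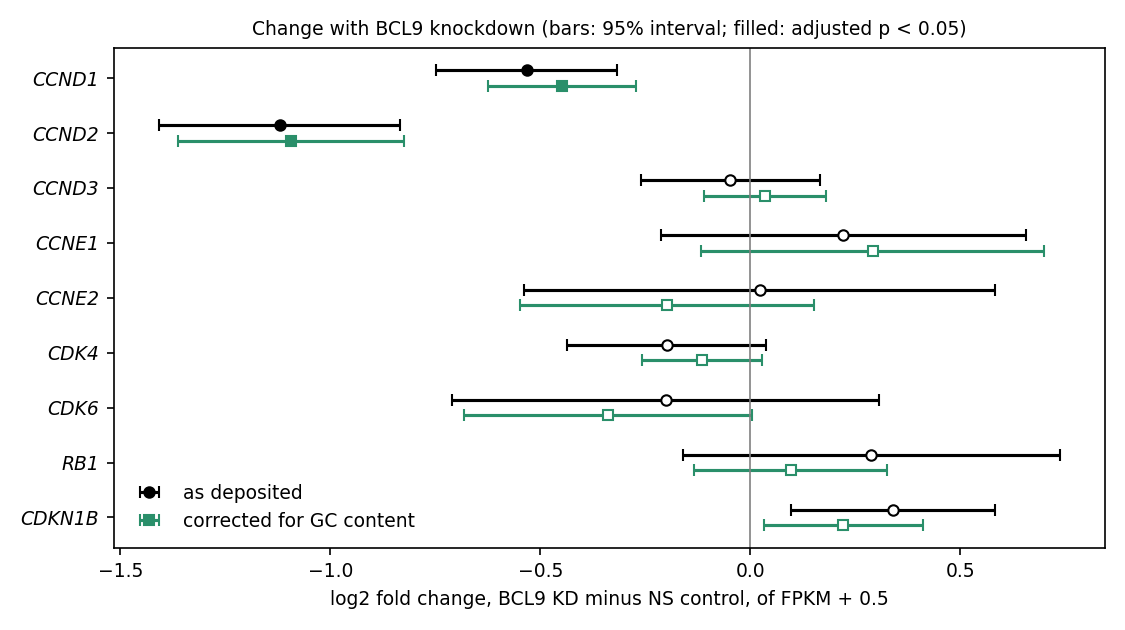
Log2 fold change of log2(FPKM + 0.5), BCL9 KD minus NS control, of 9 genes with the values as deposited (black circles) and after a GC correction of every sample (green squares). Bars give the 95% interval from limma, and filled symbols have an adjusted p under 0.05, which are CCND1 and CCND2 in both.

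The place of NS control replicate 1 among the samples differed with GC content, the share of G and C bases in a gene's transcripts. This sample was the lowest of all 6 samples for CCNE2, RB1, CDK6 and CDKN1B, whose transcripts had a GC content of 38.3% to 41.0%. It had the highest value of all 6 for CDK4, CCND1 and CCND3, with a GC content of 55.7% to 59.3%. It lay between the other samples for CCND2 (46.0%) and CCNE1 (50.4%). On the log2 scale, NS control replicate 1 was 0.74 below the mean of the other controls for CDK6 at one end and 0.28 above it for CDK4 at the other. Over all tested genes, NS control replicate 1 was the lowest sample for 35.0% and the highest for 21.3%. Its values rose by 0.21 on the log2 scale for each 10 percentage points of GC content relative to the mean of all samples, against −0.07 to 0.01 in the other 5 samples.

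**Figure D4:**
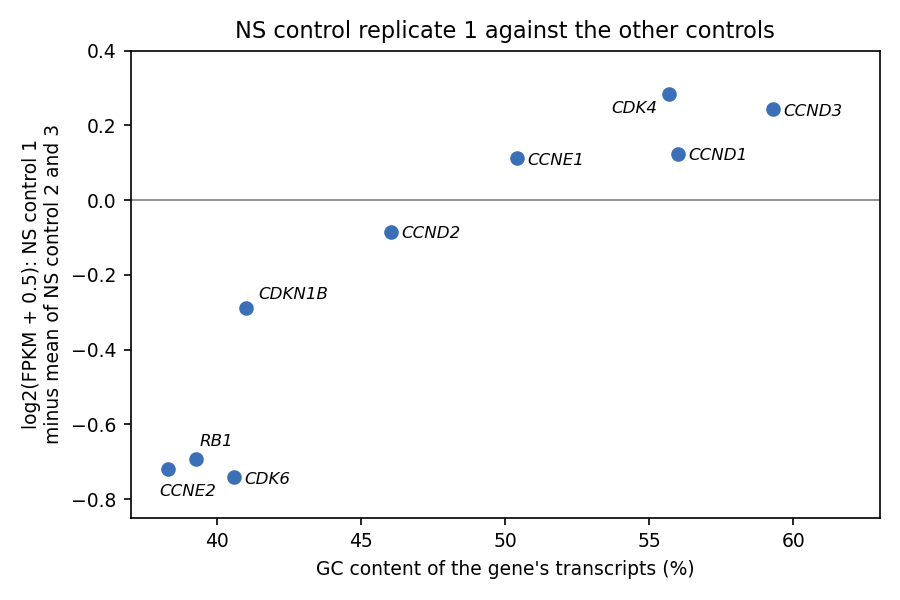
GC content of the transcripts of each gene in percent (x axis) against the log2(FPKM + 0.5) of NS control replicate 1 minus the mean of NS control replicates 2 and 3 (y axis); each point is a gene. The genes of low GC content lie below 0, down to −0.74 for CDK6, and those of high GC content lie above it.

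A correction of every sample for GC content left the calls of this group as they were. CCND2 had a log2 fold change of −1.09 (95% interval −1.36 to −0.83, limma adjusted p = 0.00574) and CCND1 of −0.45 (95% interval −0.62 to −0.27, limma adjusted p = 0.0168). The change of CDK6 became −0.34 (limma adjusted p = 0.163) and that of RB1 0.10 (limma adjusted p = 0.541). CDKN1B had 0.22 (95% interval 0.03 to 0.41, limma adjusted p = 0.113), and CCND3 moved to 0.03.

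In the order of levels, CCND1 came first and CDK4 second in both groups, each separate from the next gene in all samples. In NS control cells CCND2 followed, then CDK6, RB1 and CDKN1B, CCND3, CCNE1 and CCNE2. The NS control ranges of CDK6 and RB1 overlapped, as did those of RB1 and CDKN1B, and all other neighbours were separate. In BCL9 KD cells CCND2 came after CDK6, CDKN1B and RB1, and its highest value of 15.0 FPKM overlapped the range of RB1 (14.02 to 14.6 FPKM). CDK6 and CDKN1B also overlapped there.

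CDKN2A, on chromosome 9 from 21967753 to 21995301, had 0 reads in all 6 samples. At the depth of these samples, 3 reads, the upper limit that a count of 0 allows, correspond to 0.0257 to 0.0455 FPKM in a sample. That limit is under the level of each of the other 9 genes, the lowest of which was 0.601 FPKM for CCNE2 in NS control replicate 1. It covers counting error only. In the deposited annotation CDKN2A overlaps CDKN2B-AS1 and a second gene that spans it on the opposite strand, both also at 0, and how the counting treated shared bases is not given in the sources used here. If reads on shared bases were left out, the limit would hold for counted reads only and not for the RNA of CDKN2A.

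The protein-coding genes next to CDKN2A also had few or no reads. CDKN2B, which encodes the related inhibitor p15 and lies 7.60 kb away, had 0 reads in all samples. MTAP, a broadly expressed enzyme of methionine salvage 30.1 kb away on the other side, had 3, 3 and 0 reads in NS control and 2, 3 and 3 reads in BCL9 KD samples. Farther out, expression was measured again. IFNE, 485 kb away, had 0.729 FPKM on average in NS control and 0.950 FPKM in BCL9 KD samples. KLHL9, 632 kb away, had 3.43 and 3.81 FPKM, and FOCAD, 972 kb away, had 4.60 and 3.53 FPKM. On the other side DMRTA1, 452 kb away, was the nearest protein-coding gene with more than 3 reads, at 18 to 24 reads in NS control and 32 to 53 reads in BCL9 KD samples, too low a level to be tested. Of the 23 other protein-coding genes within 1 Mb, 16 had no read in any sample, most of them interferon genes. Of the 3 that were tested, 0 were called, where 5.87% of all genes tested were. Among other transcripts in the window, the lincRNA RP11-408N14.1, 209 kb away, was called higher (log2 fold change 1.43, limma adjusted p = 0.0202) on 1 to 2 reads in NS control and 11 to 13 reads in BCL9 KD samples. Its mean was 0.190 FPKM in NS control and 1.39 FPKM in BCL9 KD samples, so it passed the filter on low values only through the group in which it was high, and the call is no independent evidence.

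**Figure D5:**
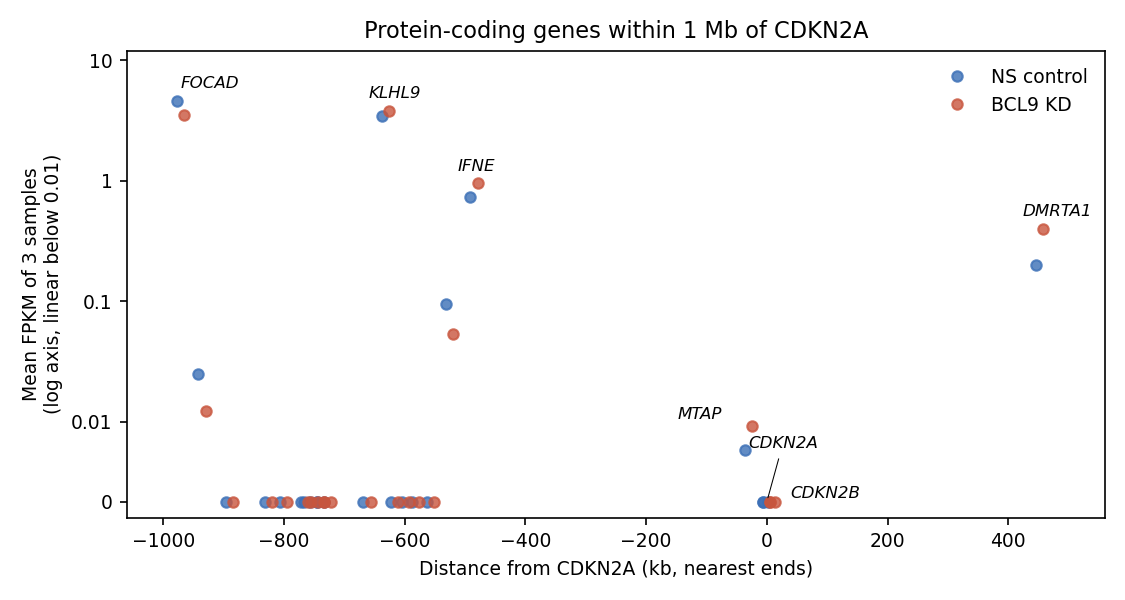
Mean FPKM of 3 samples of NS control (blue) and BCL9 KD (red) for protein-coding genes within 1 Mb of CDKN2A, against the distance in kb between the nearest ends of the genes (the colours are drawn slightly apart). The y axis is logarithmic above 0.01 FPKM and linear below. MTAP, CDKN2A and CDKN2B lie at or below 0.01 FPKM, and FOCAD, KLHL9 and IFNE between 0.729 and 4.60 FPKM.

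Protein-coding neighbours of CCND1 and CCND2 were not called, where 5.87% of all genes tested were, so that a count of 0 among so few genes is near the background. Within 1 Mb of CCND1, 12 other protein-coding genes were tested, among them CTTN at a log2 fold change of −0.15, FADD at −0.20, ANO1 at −0.01 and MYEOV at 0.10, and 0 passed. The lincRNA RP11-626H12.2, 360 kb away, was called higher (log2 fold change 0.60, limma adjusted p = 0.0187). ORAOV1 overlaps CCND1 by 1399 bases on the opposite strand and was measured at 1.30 FPKM in NS control and 1.59 FPKM in BCL9 KD samples. Within 1 Mb of CCND2, 7 other protein-coding genes were tested and 0 passed. They include TIGAR, 2.41 kb away, at −0.39 as its log2 fold change (limma adjusted p = 0.211), C12orf4 with −0.43 (limma adjusted p = 0.197) and RAD51AP1 with 0.39 (limma adjusted p = 0.222). Antisense CCND2-AS2 and the gene AC008012.1 overlap CCND2. CCND2-AS2 had 3 to 9 reads per sample, and AC008012.1, which spans all 31579 bases of CCND2 on the same strand, had 0, and reads left out as shared between genes would not appear in these numbers. Other members share bases with genes on the opposite strand, among them CDK4 with TSPAN31 (2485 bases), CCNE2 with INTS8 (1977 bases) and RB1 with LPAR6 (55138 bases). Whether the counting used strand is not given in the sources used here, and without it reads on shared bases cannot be told apart.

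The wider G1 network was read from 6 lists holding 73 genes. Of the 70 that were tested, 4 were called higher and 3 lower, where 5.87% of all genes tested were called, and their median log2 fold change was −0.06 against 0.04 for all genes. The number called ran from 0 to 14 over the other settings and left-out samples.

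Other CDK inhibitors were not called with the settings reported. CDKN1A, which encodes p21 and is a target of p53, was the most abundant of them. It was measured at 107, 90.0 and 92.4 FPKM in NS control and at 73.4, 82.1 and 80.3 FPKM in BCL9 KD samples. The groups did not overlap, and the log2 fold change was −0.29 (95% interval −0.50 to −0.08, limma adjusted p = 0.0962). It was called with quantile normalization (−0.36, limma adjusted p = 0.0265). The list also had 1 call with a filter at 1 FPKM, after the GC correction and without NS control replicate 1 or 3. CDKN2D, the p19 member of the INK4 family, had 2.38 and 3.42 FPKM on average (log2 fold change 0.45, limma adjusted p = 0.0530). CDKN2C (p18) had a log2 fold change of −0.21 and CDKN3, a phosphatase of CDKs, of 0.32, and CDKN1C and CDKN2B were under 0.5 FPKM and not tested. The median of the 4 tested genes was 0.06.

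Among 12 pocket protein and E2F genes, 1 was called, where 5.87% of all genes tested were. E2F2, an activating E2F factor, fell from 3.13 ± 0.346 to 2.10 ± 0.117 FPKM (SD, n = 3 each), at −0.48 on the log2 scale (limma adjusted p = 0.0473). E2F1, the best-known activating member, was measured at 11.2, 10.2 and 11.1 FPKM in NS control and at 8.45, 9.70 and 8.70 FPKM in BCL9 KD samples. The groups of E2F1 were separate, at −0.27 as its log2 fold change (limma adjusted p = 0.0977). E2F3 had −0.01, E2F4 0.02, and the RB1 relatives RBL1 and RBL2 had 0.18 and 0.08. The median over the 12 genes was 0.004.

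Of 10 other tested G1/S cyclins, kinases and activators, 2 rose and 1 fell, where 5.87% of all genes tested were called. CKS1B, a small subunit of CDK complexes that also helps SKP2 mark p27 for degradation, rose from 32.3 ± 1.28 to 48.5 ± 6.42 FPKM (SD, n = 3 each; log2 fold change 0.57, limma adjusted p = 0.0352). Its relative CKS2 rose from 111 ± 7.64 to 145 ± 6.28 FPKM (SD, n = 3 each; log2 fold change 0.39, limma adjusted p = 0.0398), a call that was lost after the GC correction (limma adjusted p = 0.0671). CDC25A, the phosphatase that activates CDK2, fell from 20.8 ± 1.94 to 15.8 ± 0.133 FPKM (SD, n = 3 each; log2 fold change −0.38, limma adjusted p = 0.0475). CDK2 itself was measured at 7.41, 6.83 and 7.51 FPKM in NS control and at 7.34, 8.11 and 8.11 FPKM in BCL9 KD samples, with a log2 fold change of 0.11 (95% interval −0.08 to 0.30, limma adjusted p = 0.401). It was 0.18 after the GC correction and 0.07 to 0.15 with each sample left out in turn. CCNA2, the S phase cyclin, had −0.17, and CDK7, the CDK-activating kinase, had 0.49 (limma adjusted p = 0.0530).

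Among 12 ubiquitin ligase genes that act on G1 regulators, RBX1 and FBXO4 rose, where 5.87% of all genes tested were called. RBX1, the RING subunit of cullin ligases, went from 10.96 ± 0.822 to 18.9 ± 3.79 FPKM (SD, n = 3 each; log2 fold change 0.74, limma adjusted p = 0.0422). FBXO4, an F-box protein described as a receptor for cyclin D1, went from 1.64 ± 0.221 to 2.71 ± 0.205 FPKM (SD, n = 3 each; log2 fold change 0.59, limma adjusted p = 0.0387). SKP2, the F-box protein for p27, had 0.14, AMBRA1, a receptor for D cyclins, had −0.17, and the other ligase genes did not pass. The lowest of the list was DDB1, an adaptor of CUL4 ligases, with −0.46 (limma adjusted p = 0.0511) and groups that did not overlap. The median of the list was −0.06.

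The 16 E2F target genes, most of them genes of DNA replication and nucleotide synthesis, had 0 calls with limma, and 5 of 16 had an unadjusted p under 0.05, against 27.5% of all genes tested. Their log2 fold changes were below 0 for 14 of 16, from −0.35 for MYBL2 to 0.11 for RRM1, with a median of −0.11 against 0.04 for all genes. Over all genes tested, 6124 of 13745 were below 0. Both counts include NS control replicate 1, whose values rose with GC content. The number below 0 was not counted without that sample or after the GC correction. MCM4, a subunit of the replicative helicase, had −0.27 (limma adjusted p = 0.0772), PCNA, the sliding clamp, had 0.10, and TK1, thymidine kinase, had −0.02. The list had 0 to 2 called genes over the other settings and left-out samples; voom on recovered reads gave 0.

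Of 16 transcription factor genes that act upstream of D cyclins or p27, STAT3 was called. That is near the 5.87% called over all genes tested. STAT3 was measured at 39.0, 33.1 and 31.1 FPKM in NS control and at 24.5, 22.9 and 22.0 FPKM in BCL9 KD samples (log2 fold change −0.56, limma adjusted p = 0.0325). CTNNB1, which encodes β-catenin, the partner of BCL9, had −0.22 (limma adjusted p = 0.112), TCF7L2 had −0.16 and LEF1 0.03. MYC, another Wnt target that feeds into G1, was measured at 54.8, 52.7 and 51.8 FPKM in NS control and at 51.5, 57.6 and 55.5 FPKM in BCL9 KD samples. Its log2 fold change was 0.05 (95% interval −0.12 to 0.21, limma adjusted p = 0.694), and the sign turned with quantile normalization (−0.0026). It was 0.13 after the GC correction and 0.0098 to 0.089 with each sample left out in turn. The median of the list was −0.13.

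The calls in these lists lay near the threshold. Without NS control replicate 1, STAT3 alone kept its call and 6 of the 7 lost it (limma adjusted p = 0.0512 to 0.0603), while 2 other list genes were called. Without NS control replicate 3, 6 of the 7 kept their calls and RBX1 lost it, among 12 called. Without BCL9 KD replicate 1, CKS1B, RBX1 and STAT3 kept their calls, among 4 called. Median-of-ratios scaling ended the calls of CDC25A, E2F2, RBX1 and CKS2 (limma adjusted p = 0.0516 to 0.0621), and quantile normalization those of E2F2 and CKS2 (limma adjusted p = 0.0528 and 0.0561). There were 0 calls in the lists without NS control replicate 2, BCL9 KD replicate 2 or BCL9 KD replicate 3.

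Promoter windows, 250 bases before to 50 bases after a gene's RefSeq start in GRCh38.p14, were at hand for 7 of the 10 genes, in 11 windows. The set used here held none for CCND1, CCND2 or CCNE2, so the called members are not covered. In the 11 windows the TCF/LEF core CTTTGA, the E2F letters TTTNNCGC and the CRE letters TGACGTCA had 0 matches on either strand, where 12.9%, 6.89% and 1.85% of all 35116 windows held one. The STAT letters TTCNNNGAA and the AP-1 letters TGANTCA each matched in 1 window, that of RB1, which lies inside the gene, and 7.66% and 7.71% of all windows held them. The SP1 letters GGGCGG were in 7 of 11 windows and in 45.0% of all windows. A match is a description of letters and not a binding site.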

How the data were processed

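RNA was sequenced from 3 NS control and 3 BCL9 KD samples. The values deposited by the authors are FPKM, made from STAR alignments and per-gene HTSeq 0.6.1 counts. The deposited table also holds gene lengths in bases, in other units. The submitters' processing notes name hg38. The study's methods tested counts, whereas FPKM were tested here. They speak of 2 biological replicates per condition, while the labels give 3 samples per group, and all 3 were used as separate replicates. The replicates were flasks of transduced cells, and a separate transduction for each is not described. The limma p-values and intervals therefore measure the spread between flasks.

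Groups came from the labels. Using limma 3.58.1 in R 4.3.3, log2(FPKM + 0.5) of all 6 samples was fitted without covariates, with moderated variances that follow the mean level. The 0.5 makes the fold changes of low genes smaller. FPKM times gene length gave whole multiples of a step for 100% of values (tolerance 0.1), which gave reads and depth, 15222452 to 26949026 per sample; these reads were used for voom. Reads carry no molecular identifiers, so the limit given for a count of 0 covers counting error alone. Other steps used Python 3.11 with pandas 2.3.3, numpy 2.4.6, scipy 1.17.1 and, for plots, matplotlib 3.10.9.

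The members and lists were chosen with earlier results of these data known. Genes named are the 10 members, BCL9, called genes of the lists, protein-coding neighbours and E2F1, CDKN1A, CDK2, CDKN2B and MYC; others named are list or neighbour genes chosen after their values were seen, as was the CCND2 neighbourhood. GC content came from GRCh37 transcripts for 98.8% of tested genes and was removed by loess (span 0.3). Other alternatives were the added value, the filter, scaling, the variance model, a replicate block and leaving out each sample. Strand in counting is not given in the sources used here.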

Additional observations from a re-analysis of the deposited data

How the results depend on the processing

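CCND1 and CCND2 were lower under all 12 other settings and in all 6 fits that left out a sample. BCL9, CCND1 and CCND2 lost their calls with the replicate block (log2 fold change −0.99, −0.53 and −1.12), in which 0 genes were called over all genes, 0 members and 0 list genes, with 3235 genes at an unadjusted limma p under 0.05. Same-numbered samples had deviations with correlations of −0.15, −0.09 and −0.0029, against a mean of 0.04 for samples of different numbers. No pairing by number was seen in these values, but such correlations cannot show that the samples were unpaired. With the replicate block and the GC correction together, 435 genes were called (66.9% of them higher, against 57.0% with the GC correction alone and 50.4% with the settings reported), 1 member (CCND2) and 1 list gene (STAT3), and CCND1 had −0.45, CCND3 0.034 and CCNE2 −0.20. CCND1 also lost its call when low genes were kept and when the variance trend was dropped (−0.53 in both), where 142 and 332 genes, 1 member each and 0 and 1 list genes were called. Over all genes 807 were called with the settings reported, 1400 with voom and 1803 with the GC correction, which gave 14 list genes; median-of-ratios scaling gave 3. Signs turned with the GC correction for CCND3 (0.034) and CCNE2 (−0.20), and with quantile normalization for CCNE2 (−0.048) and MYC (−0.0026). With each sample left out in turn, the ranges were 5 to 1712 genes called, 0 to 2 members, 0 to 12 list genes, −1.06 to −0.95 for BCL9, −0.61 to −0.49 for CCND1, −1.24 to −1.05 for CCND2, −0.10 to 0.033 for CCND3 and −0.22 to 0.21 for CCNE2. The causes of these changes were not tested. CDKN2A had no reads and could not be tested, and CCNE2 rests on 60 to 124 reads per sample.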
